A study of Mus musculus with 2 samples.

Results

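The genes described here are those of mitochondrial oxidative phosphorylation, chosen by name. They are the genes whose symbol starts with Nduf, Uqcr or Atp5, the genes Sdha, Sdhb, Sdhc and Sdhd, and the genes whose symbol starts with Cox4i, Cox5, Cox6, Cox7 or Cox8. Probe sets with exactly 1 gene symbol in the platform annotation gave 90 such genes, of 18193 named genes on the array, through 179 probe sets. The series set T helper 2 (Th2) memory cells that were positive for interleukin-5 against those that were negative, on 1 Affymetrix array each. Both groups came from magnetically purified splenic CD4 T cells of BALB/c mice carrying the DO11.10 T cell receptor transgene, which recognises a peptide of ovalbumin. The cells were stimulated with the peptide for 6 days under Th2 conditions (25 U/ml IL-2 and 100 U/ml IL-4) and injected into BALB/c nu/nu mice, which lack a thymus but keep B, NK and myeloid cells of their own. Memory cells were taken from the spleen 30 days later and sorted by IL-5. The starting cells were over 98% pure, and both groups share the receptor transgene and an athymic host. The sources used here do not give the age or number of the mice, any pooling of RNA, or how cells were stimulated before the sort.

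Oxidative phosphorylation is the final stage of respiration. Complex I (the Nduf genes) and complex II (the Sdh genes) pass electrons from NADH and succinate to ubiquinone, complex III (the Uqcr genes) passes them to cytochrome c, and complex IV (the Cox genes) passes them to oxygen. Complexes I, III and IV pump protons across the inner mitochondrial membrane, and complex V (the Atp5 genes) uses the gradient to make ATP. Memory T cells are known to rely on this pathway more than effector T cells do, whereas activated T cells run much of their metabolism through glycolysis. The subunits studied here are encoded in the nucleus, and the remaining subunits of complexes I, III, IV and V are encoded in mitochondrial DNA.

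Each gene's value is the log2 ratio of its linear array signals, IL-5+ over IL-5-, at its brightest probe set. A floor of 36.3, the 40th percentile over both arrays, replaced any lower signal. Each group had a single array, so nothing was tested and no difference has a replicate check. Error was gauged only by how far probe sets of the same gene differ. Over all genes the SD of that difference from the gene mean was 0.552 on the log2 scale at mean signals from 36.3 to 112.8, 0.369 up to 500, 0.205 up to 2000 and 0.134 above that. This SD leaves out all variation between mice, sorts and RNA preparations.

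The sorting marker Il5 read 37085 in the positive and 67.4 in the negative cells, the order the labels give. Of 8 T cell markers, 7 had a named probe set, all of them above the floor on both arrays. Their signals summed to 37451 (IL-5+) and 50136 (IL-5-), and each was lower in the positive cells, from Cd4 (454.5 and 471.0) to Cd247 (3432.7 and 6033.3). The B cell markers summed to 126 on each array. The monocyte and macrophage markers summed to 174 (IL-5+) and 260 (IL-5-), and the erythroid markers to 39 and 22. The NK markers summed to 538 and 318, almost all from Klrk1, and the CD8 T cell markers to 347 and 245. Of the 15 named markers of these other cell types none exceeded 519.4, and 6 (Cd79a, Cd79b, Cd14, Itgam, Alas2 and Ncr1) were under the floor on both arrays. The part of such cells in the ratios below was not tested. In sorted bulk cells, fewer cells of a type and less RNA per cell cannot be told apart.

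The oxidative phosphorylation genes had nearly the same signals whether or not the cells were IL-5 positive. Of the 90 genes, 85 exceeded the floor on both arrays, 1 in negative cells alone and 4 (Ndufb4, Ndufa4l2, Cox7b2 and Cox8b) on neither. Among the 86 measured genes none was at least 2-fold higher in IL-5+ cells and 1 was at least 2-fold lower, against 2.85% and 4.01% of all 13133 measured genes. At 1.5-fold, none was higher and 2 were lower (both dim isoforms of complex IV), where 7.89% and 11.9% of all genes were. The median log2 ratio was -0.069, beside -0.048 over all measured genes.

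Many of these genes were among the brightest on the array, so they are also set beside all bright genes. Of the 90 genes, 72 had a mean signal of 2000 or more. All 72 lay within 0.25 of 0 on the log2 scale, from -0.233 (Atp5o) to 0.108 (Uqcrc2), while 71.0% of the 2411 named genes of that brightness and 49.3% of all measured genes lay within 0.25. None of the 72 reached 1.5-fold, which 4.48% of the bright genes did upward and 2.94% downward. The median log2 ratio was -0.062 over the 72 genes and 0.006 over the 2411. The SD of the ratio over the 72 genes was 0.085, and over all 2411 bright genes it was 0.384. The median of the mean signal was 8500 over the 72 and 4215 over the 2411, so these sets are not matched in brightness. Different probe sets of 1 oxidative phosphorylation gene at this brightness differed with an SD of 0.084 (84 probe sets of 35 genes). The spread from gene to gene was therefore close to this SD, which comes from 35 of the genes, and below the 0.134 over all genes. With 1 array per group this does not show whether single genes differ between the groups.

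**Figure D1:**
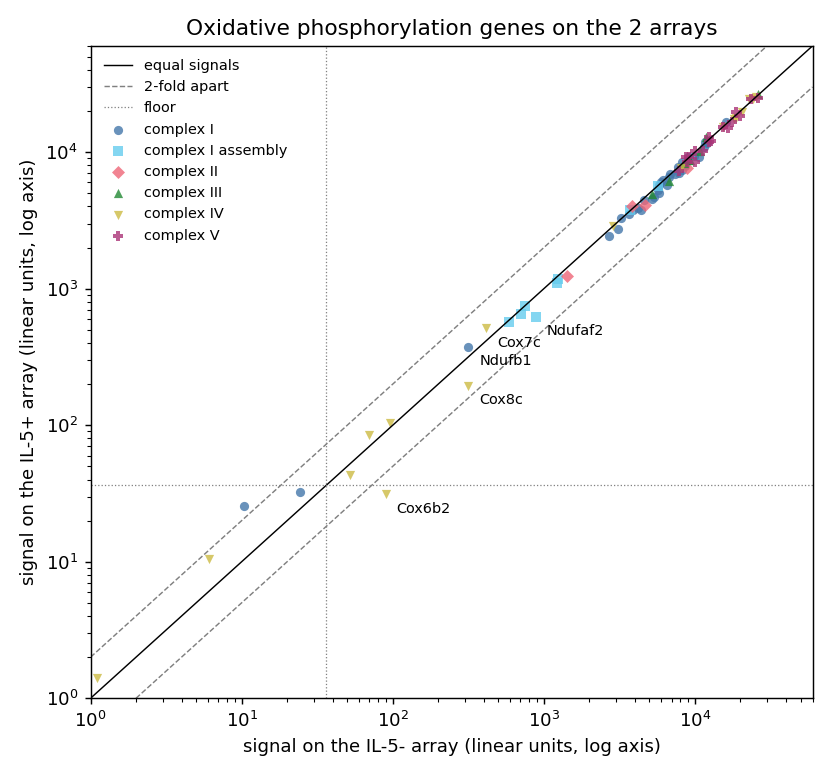
Signal of each of the 90 genes on the IL-5- array (x) and the IL-5+ array (y), both in linear units on log axes, 1 point per gene at its brightest probe set, coloured by complex. The solid line marks equal signals, the dashed lines a 2-fold difference and the dotted lines the floor of 36.3. Points above 2000 hug the line of equal signals, and Cox6b2 (31.1 against 89.9) is the only measured gene beyond a dashed line.

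The small offset below 0 was uneven and moved with scaling. Of the 86 measured genes, 60 had a ratio below 0 (69.8%, against 55.5% of all genes), and among the 72 bright ones 69.4% did, against 48.2% of all bright genes. Dividing each array by its median signal turned round the count among the 86 genes, leaving 34 below 0 and 52 above with a median of 0.01. It moved other genes too, and the median over all measured genes went from -0.048 to 0.026. The shares of all genes and of bright genes below 0 were not counted after scaling. Quantile and loess scaling put 71 and 67 of the members below 0. No direction for the whole group is therefore given. The offset was also smaller in the brightest genes. The 27 members with a mean signal of 10000 or more had a median of -0.008 (59.3% below 0, against 37.9% of all 401 such genes), and the 45 from 2000 to 10000 had a median of -0.077. Over all named genes in these ranges the medians were 0.025 and -0.001. All 27 lay within 0.25 of 0, as did 86.5% of the 401.

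Promoter sequences were examined because nuclear-encoded subunits are known targets of the factors NRF1, GABPA (an ETS factor) and YY1. A promoter here is the 300 bases from 250 before to 50 after a transcription start, from RefSeq on GRCm38.p6. It was found for 74 of the 90 genes, which have 79 promoters. Within these windows the NRF1 core GCATGCGC, read on both strands, was in 13.9% of the members' promoters, in 2.71% of all 32851 promoters and in 6.15% of the 2504 promoters of bright genes. The same core with GC added before it, a palindrome, was in 7.59%, 0.971% and 2.48%. The YY1 core AAGATGGC was in 12.7%, 2.75% and 6.31%, and in 9 of its 10 member promoters it lay on the gene's own strand. The ETS core CCGGAAG was in 24.1% of member promoters, 8.86% of all promoters and 24.2% of those of bright genes. On the gene's own strand alone it was in 8.86%, 4.77% and 14.4%, in the same order. The SP1 box GGGCGG was in 45.6% of member promoters, 35.7% of all promoters and 65.1% of those of bright genes. In the same order, the TATA box TATAAA was in 11.4%, 13.6% and 7.95%. On the own strand alone the TATA box was in 3.8%, 8.32% and 5.11%. Both comparison sets include the members, and the median GC content was 59.0% in the members, 52.7% in all promoters and 61.3% in those of bright genes. A match is a description of letters, not of binding.

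Of the 74 genes, 7 held 2 of the 3 cores (8-letter NRF1, ETS, YY1) in 1 promoter and 26 held 1. The brightest such gene of each of complexes II to V is shown, as the examples where both an NRF1 and an ETS core lie in the window. No complex I subunit held more than 1. Capitals mark the NRF1 and ETS cores on either strand, and the transcription start follows the first 250 bases of each line. Sdhb lies at chr4:140961021-140961320 on the plus strand, Uqcr11 at chr10:80406772-80407071, Cox6a1 at chr5:115348909-115349208 and Atp5k at chr5:108434350-108434649, all 3 on the minus strand.
Sdhb: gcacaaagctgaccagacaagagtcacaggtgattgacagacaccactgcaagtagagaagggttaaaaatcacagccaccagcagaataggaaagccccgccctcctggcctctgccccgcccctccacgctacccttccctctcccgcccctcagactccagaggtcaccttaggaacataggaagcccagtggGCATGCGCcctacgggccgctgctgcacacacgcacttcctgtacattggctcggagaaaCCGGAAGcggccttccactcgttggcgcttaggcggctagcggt
Uqcr11: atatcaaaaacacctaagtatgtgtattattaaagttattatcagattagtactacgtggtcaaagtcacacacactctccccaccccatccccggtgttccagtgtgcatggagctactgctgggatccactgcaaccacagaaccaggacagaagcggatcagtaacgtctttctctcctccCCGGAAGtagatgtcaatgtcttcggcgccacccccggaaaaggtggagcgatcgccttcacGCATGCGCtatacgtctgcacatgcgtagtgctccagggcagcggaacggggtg
Cox6a1: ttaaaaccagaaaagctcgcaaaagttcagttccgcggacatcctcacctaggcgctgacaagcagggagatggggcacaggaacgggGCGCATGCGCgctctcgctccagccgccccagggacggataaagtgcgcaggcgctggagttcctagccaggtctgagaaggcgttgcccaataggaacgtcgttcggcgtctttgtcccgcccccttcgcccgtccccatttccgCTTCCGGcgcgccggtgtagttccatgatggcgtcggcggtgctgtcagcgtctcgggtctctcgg
Atp5k: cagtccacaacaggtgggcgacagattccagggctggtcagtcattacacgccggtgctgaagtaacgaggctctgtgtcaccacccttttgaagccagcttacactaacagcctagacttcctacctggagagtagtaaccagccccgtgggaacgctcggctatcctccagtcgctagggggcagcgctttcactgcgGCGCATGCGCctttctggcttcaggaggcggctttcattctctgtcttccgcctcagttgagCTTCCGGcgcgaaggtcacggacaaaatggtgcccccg

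The ratio between arrays is given here with and without each core. Among measured genes with a promoter, the 11 with an NRF1 core had a median log2 ratio of -0.072 and the 60 without had -0.071. For the ETS core the medians were -0.078 (19 genes) and -0.062 (52 genes), and for the YY1 core -0.015 (10 genes) and -0.072 (61 genes). These differences were not tested.

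Complex I, the NADH dehydrogenase and largest complex of the chain, had 36 structural genes by name, of which 34 were measured. None reached 1.5-fold in either direction, the median log2 ratio was -0.072 and 25 of the 34 lay below 0. The core subunits, which carry the flavin and iron-sulphur clusters, had a median of -0.126 over 6 genes. Ndufs7, a core iron-sulphur subunit next to the ubiquinone site, had the lowest ratio of complex I, with a signal of 3760.2 in IL-5+ and 4373.1 in IL-5- cells (-0.218). Its other probe set read 3150.1 and 3971.7 (-0.334), so the IL-5+ signal was the lower one at both.

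Ndufs8, a core subunit with a pair of iron-sulphur clusters, read 7968.9 and 8540.7 (-0.10). All 6 of its probe sets lay below 0, from -0.546 at the dimmest to -0.097. Ndufv2 (7062.8 and 7849.2, -0.152) and Ndufs1 (2423.2 and 2704.9, -0.159), both iron-sulphur subunits of the NADH-oxidising arm, lay close to each other. Ndufv1, the subunit that binds NADH, had 3788.0 and 3912.0 (-0.046), and Ndufs3 had 6228.2 and 6168.7 (0.014). The core genes thus ran from about 1.16-fold lower (Ndufs7) to equal signals (Ndufs3).

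The accessory subunits of complex I surround the core and serve its assembly and stability. Their median was -0.059 over 28 measured genes, Ndufa4 included. After Ndufs7, the lowest were Ndufb2 (4504.0 and 5187.1, -0.204, with -0.353 and a dim -1.313 at its other probe sets), Ndufa5 (5017.7 and 5764.5, -0.20) and Ndufa6 (4705.2 and 5398.4, -0.198). The highest were Ndufb1 (375.2 and 316.8, 0.244), Ndufa1 (16620.4 and 16016.2, 0.053), Ndufb7 (8468.3 and 8187.7, 0.049) and Ndufb11 (9252.1 and 9032.6, 0.035). Ndufb1 was the only dim one of these, at a brightness where probe sets of 1 gene differ with an SD of 0.369. Ndufa4, named for complex I but now assigned to complex IV, read 11591.1 and 11966.9 (-0.046).

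Repeat probe sets of a complex I gene often lay on the same side of 0. Of the 16 complex I genes with more than 1 probe set at a signal of 2000 or more, 10 had all of them below 0, 1 (Ndufb6) had all above and 5 were mixed. Of the 7 such genes of complex V, 4 had all below and 3 all above. Complex IV was less even, with 6 of 8 such genes mixed, 1 below and 1 above. In complex III, 2 of 3 were mixed and 1 was above. Over the members as a whole the counts were 16 below, 6 above and 13 mixed, of 35 genes. These signs depend on the scaling, as described above. The same counts were not made over all 706 genes with several probe sets of that brightness. Probe sets of 1 gene read the same RNA on the same 2 arrays, so their agreement is not an independent check.

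The 8 complex I assembly factors, Ndufaf1 to Ndufaf8, help to build the complex but are not part of it. Their median was -0.051, and 7 lay below 0. Ndufaf2, which assists a late step of assembly, had 619.6 in IL-5+ and 883.9 in IL-5- cells, a ratio of -0.513 (1.43-fold lower). It was the farthest from 0 among members with a mean signal of 500 or more, it rests on 1 probe set, and the probe set SD at this brightness is 0.205. The others ran from -0.158 (Ndufaf1, 1092.3 and 1219.0) through Ndufaf7 (-0.102), Ndufaf6 (-0.067), Ndufaf3 (-0.036), Ndufaf5 (-0.022) and Ndufaf4 (-0.007) to 0.029 (Ndufaf8, 3774.2 and 3699.2), whose second probe set gave -0.139.

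**Figure D2:**
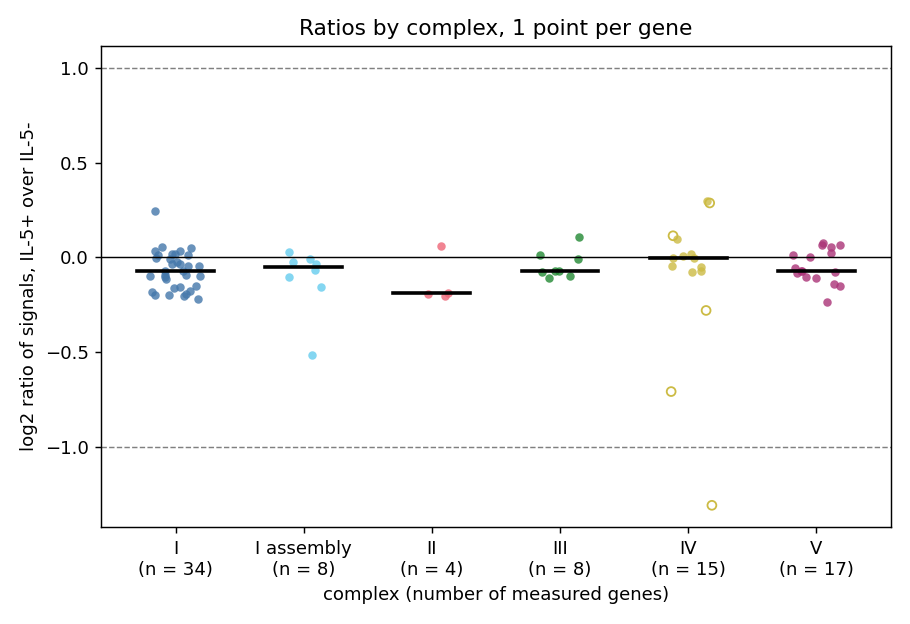
Log2 signal ratio of IL-5+ to IL-5- cells (y), for each measured gene of complexes I to V and of the complex I assembly factors (x), 1 point per gene, with the median as a black bar. Open circles are the tissue-restricted isoforms, and dashed lines mark a 2-fold difference. Complex II has the lowest median (-0.19, 4 genes) and complex IV the highest (-0.002, 15 genes), and the points beyond 0.5 below 0 are Ndufaf2, Cox8c and Cox6b2.

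Complex II, succinate dehydrogenase, also belongs to the TCA cycle and has no subunit encoded in mitochondrial DNA. Its median of -0.19 over 4 genes was the lowest of the complexes. Sdhb, the iron-sulphur subunit whose promoter is printed above, read 7662.7 in IL-5+ and 8836.7 in IL-5- cells (-0.206, 1.15-fold lower). The membrane anchors Sdhc (1240.6 and 1413.8, -0.189) and Sdhd (4074.8 and 4651.1, -0.191) gave nearly the same ratio, and the second probe set of each lay nearer 0, at -0.094 and -0.099. Sdha, the flavoprotein that oxidises succinate, went the other way at its brightest probe set (4018.5 and 3857.6, 0.059).

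The remaining Sdha probe sets did not share that value. The next one read 1228.4 and 1564.4 (-0.349), and a dim one read 32.3 and 104.2, over the floor in negative cells only. The complex II median was the lowest of the 6 groups with every scaling, floor and choice of probe sets that was tried, from -0.191 to -0.111. The distance to the highest median was 0.188, and with 4 genes and 1 array per group it has no test.

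Complex III, cytochrome bc1, had 8 genes, all measured, with a median of -0.072. Uqcrc2, a core protein, was the highest (12817.5 in IL-5+ and 11889.8 in IL-5- cells, 0.108), but its other probe set stood at -0.015. Its partner Uqcrc1 had 8350.5 and 8406.2 (-0.01), and Uqcrfs1, the Rieske iron-sulphur protein that carries electrons to cytochrome c1, had 8694.9 and 9174.6 (-0.077). Uqcrb, a ubiquinone-binding subunit, was the brightest gene of the whole group, at 26507.8 and 26273.2 (0.013). Uqcr11, printed above, was the lowest at 6198.3 and 6690.1 (-0.11). The small subunits Uqcrh (10160.9 and 10871.2, -0.097, but 0.144 at its other bright probe set), Uqcrq (8828.4 and 9286.1, -0.073) and Uqcr10 (4977.8 and 5227.7, -0.071) lay between. The dimmer probe sets of Uqcr10 gave 0.529 and 0.737.

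Complex IV, cytochrome c oxidase, had a median of -0.002 over 15 measured genes, and the same over the 10 that are not tissue-restricted isoforms. Cox4i1, the regulatory subunit that binds ATP, read 17409.5 in IL-5+ and 18014.8 in IL-5- cells (-0.049). Cox5a (24682.2 and 24412.9, 0.016) and Cox5b (17775.2 and 18712.8, -0.074) flanked 0, and the other measured Cox5b probe sets ran from -0.43 at a dim one to 0.034. Cox6a1, printed above, had almost equal signals of 25346.0 and 25384.0 (-0.002), although its second probe set stood at 0.217. Cox6b1 (19835.4 and 20457.7, -0.045), Cox7a2 (24498.1 and 22870.9, 0.099) and Cox8a (7699.2 and 8128.4, -0.078) completed the bright subunits that have a restricted partner. Cox7c was the highest of complex IV (511.2 and 415.9, 0.298), and its second probe set gave 0.391, beside a probe set SD of 0.369 at that brightness.

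Several complex IV subunits have isoforms made mainly in heart and muscle (Cox6a2, Cox7a1, Cox8b), lung (Cox4i2) or testis (Cox6b2, Cox7b2, Cox8c). In these T cells all of them were dim. Cox8b and Cox7b2 were under the floor on both arrays, and so was Ndufa4l2, the paralog of Ndufa4. Cox4i2 read 43.0 and 52.2 (-0.28), Cox6a2 84.8 and 69.5 (0.287) and Cox7a1 104.4 and 96.5 (0.114). All 3 lay within the SD of 0.552 for signals this low.

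Cox6b2 was the single gene past 2-fold, with 89.9 in negative cells and 31.1, under the floor, in positive ones, which bounds it as at least 2.48-fold lower with IL-5. It rests on 1 probe set, and with a floor of 112.8, the 60th percentile of signals, it no longer had a ratio. Cox8c was lower at its brightest probe set (192.7 and 314.7, -0.708) and higher at the other (115.4 and 53.6, 1.106), so its probe sets disagreed in direction. Neither of these dim genes has an agreed difference between the arrays.

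Complex V, the ATP synthase, had 17 genes, all measured, with a median of -0.072 and 10 below 0. The F1 head, where ATP is made, had a median of 0.002 over 5 genes. Its catalytic beta subunit Atp5b read 24354.5 in IL-5+ and 23459.4 in IL-5- cells (0.054), and the alpha subunit Atp5a1 15329.8 and 15313.4 (0.002, with 0.146 and 0.197 at its other probe sets). The gamma subunit Atp5c1, the rotating shaft, had 16536.8 and 17469.4 (-0.079), and the delta and epsilon subunits Atp5d and Atp5e had 12954.4 against 12396.1 (0.064) and 12008.3 against 12698.4 (-0.081). At the brightest probe sets the F1 signals thus differed between arrays by at most 1.06-fold for each of the 5 genes.

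The membrane part and stalk of complex V had a median of -0.073 over 12 genes. Atp5o, which encodes the stalk protein that confers oligomycin sensitivity, was the lowest at 8494.7 and 9986.9 (-0.233, 1.18-fold lower), with -0.061 at its second probe set. Atp5j2 (15001.4 and 16655.1, -0.151), Atp5j (10250.0 and 11275.2, -0.138) and Atp5g1 (7237.0 and 7802.0, -0.108) followed. The highest were Atp5mpl (9227.2 and 8761.3, 0.075) and Atp5pb (19593.7 and 18756.7, 0.063). Atp5k, printed above, gave -0.072 with 11820.1 and 12428.5, and its other probe sets gave -0.073 and -0.072. The genes Atp5g1, Atp5g2 and Atp5g3 encode the same mature c-ring protein, and their ratios were -0.108, -0.073 and -0.054.

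**Figure D3:**
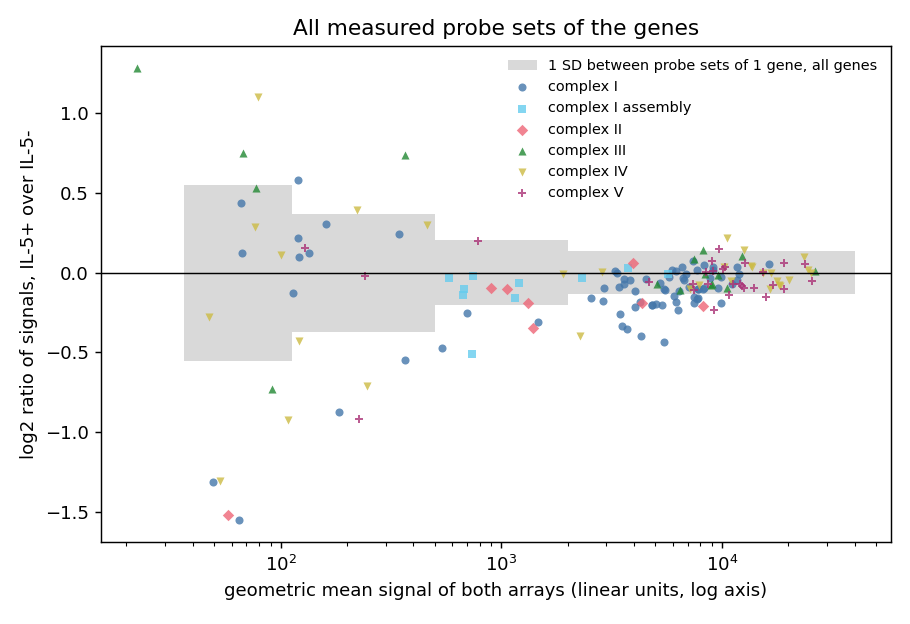
Log2 signal ratio of IL-5+ to IL-5- cells (y), against the mean signal of both arrays in linear units on a log axis (x), for the 169 measured probe sets of the member genes, coloured by complex. The grey band is 1 SD of the disagreement between probe sets of the same gene over all genes. The 121 probe sets at 2000 or more run from -0.432 to 0.217, and all 6 probe sets past 2-fold lie under 500.

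Probe sets of the same gene agreed where they were bright and scattered where they were dim. Of 169 measured probe sets, 121 had a mean signal of 2000 or more, with a median of -0.071, and none reached 1.5-fold. Another 16, from 500 to 2000, had a median of -0.12 and again none reached 1.5-fold. The 32 probe sets under 500 ranged from -1.55 to 1.282, of which 2 were up and 4 were down by 2-fold or more. The share past 2-fold was not counted over all probe sets under 500. The widest ranges within a gene came from such dim probe sets. Uqcrq spanned -0.729 to 1.282 over 4 probe sets and Ndufab1, the acyl carrier protein of complex I, -1.55 to 0.438 over 5, while their brightest ones stood at -0.073 and -0.093. Cox8c, described above, had the third widest range. Of the 90 genes, 47 were represented by a probe set with the suffix _s_at, _x_at or _a_at, which marks a possible match to several transcripts. For _a_at these are transcripts of the same gene. For _s_at and _x_at they can be family members or pseudogenes, and those values may mix sources.

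The other gene lists had medians from -0.157 to 0.004, beside -0.069 in the members. The single mitochondrially encoded subunit with a named probe set, ND5 of complex I, had signals of 12923.1 and 14410.0 (-0.157). Among 15 measured genes (of 16 listed) of cytochrome c, its partners and mitochondrial carriers the median was -0.022 and none reached 1.5-fold. Gpd2, the mitochondrial glycerol phosphate dehydrogenase that feeds ubiquinone, was the highest (965.1 and 679.4, 0.506), with other probe sets down to -0.023. Dhodh, the pyrimidine synthesis enzyme that also feeds ubiquinone, was the lowest (936.6 and 1209.1, -0.368), followed by the ATP synthase inhibitor Atpif1 (1145.0 and 1418.4, -0.309), whose 3 probe sets ran from -0.545 to 0.576.

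Of 35 measured assembly factors (38 listed) of complexes I to V outside the Ndufaf names, 1 was at least 1.5-fold lower and none higher, with a median of -0.031. That gene was Nubpl, which loads iron-sulphur clusters into complex I (362.7 and 553.3, -0.609). Sdhaf4 (934.1 and 1345.0, -0.526), which helps to mature Sdha, and Foxred1 (327.2 and 466.5, -0.512), another complex I assembly factor, came next. Each rests on 1 probe set.

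The TCA cycle, which supplies NADH and succinate, had a median of -0.008 over 16 measured genes of 17. Idh2, the NADP-dependent isocitrate dehydrogenase, was the only one at least 1.5-fold apart (418.8 and 686.8, -0.714), but its other probe set stood at -0.117. Dlat of the pyruvate dehydrogenase complex (1597.0 and 1309.8, 0.286) and citrate synthase, Cs (5279.6 and 6255.2, -0.245), had the next largest ratios. The 3 Dlat probe sets agreed, from 0.28 to 0.307.

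Regulators of mitochondrial biogenesis had a median of 0.004 over 15 measured genes of 17. Esrra, a nuclear receptor that drives respiratory genes, was the only one at least 1.5-fold higher (762.1 and 502.8, 0.60), and its other probe set gave -0.054. Polg2, a subunit of the mitochondrial DNA polymerase, had 409.6 and 578.5 (-0.498), and Ppargc1b, a coactivator of respiratory genes, 391.4 and 518.4 (-0.405). Ppargc1a was under the floor on both arrays.

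The mitochondrial ribosome, which makes the mitochondrially encoded subunits, was the largest of these lists. All 76 of its genes with a named probe set were measured, with a median of -0.141, beside -0.069 in the members. Of the 76, 61 (80.3%) lay below 0, against 55.5% of all measured genes and 48.2% of bright genes. The lowest were Mrps34 (3742.2 and 5174.8, -0.468) and Mrpl55 (1020.6 and 1380.5, -0.436). Mrpl33 was the only one at least 1.5-fold apart, and it was higher (7347.0 and 4519.2, 0.701), with -0.238 at its other probe set. The list's median stayed below 0 in all alternatives, from -0.146 to -0.062.

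Glycolysis is set beside these genes as the other main source of ATP. Its median was -0.116 over 18 measured genes of 22, with 1 at least 2-fold lower and none 2-fold higher. That gene was Pdk1, a pyruvate dehydrogenase kinase (140.1 and 348.2, -1.313), whose other probe sets reached -0.136. Hk2, an inducible hexokinase, was the highest (4976.2 and 3098.7, 0.683), and Eno3, an enolase isoform of muscle, stood at -0.827 (256.9 and 455.6).

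**Figure D4:**
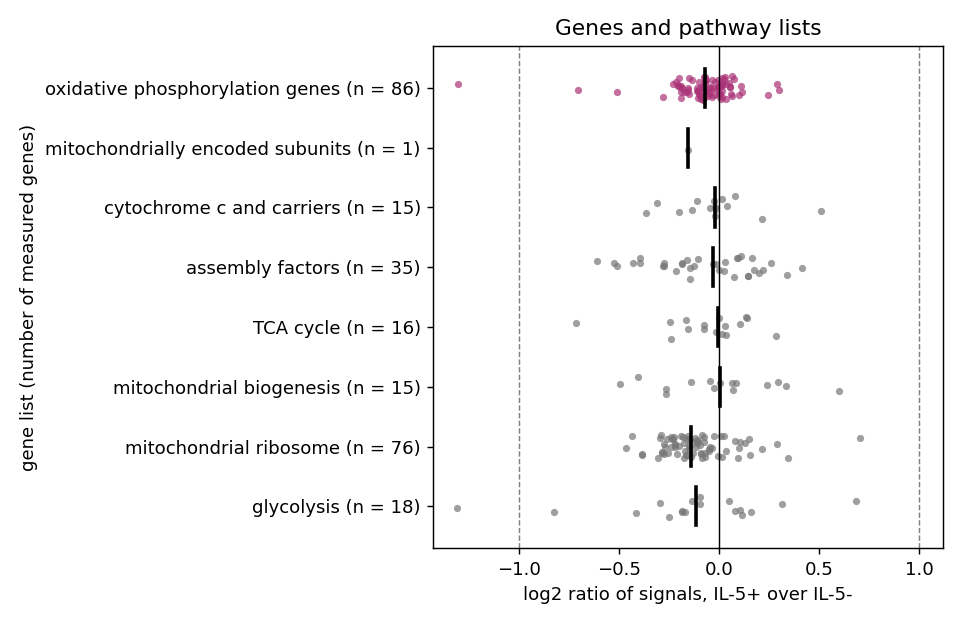
Log2 signal ratio of IL-5+ to IL-5- cells (x), for the measured oxidative phosphorylation genes and for 7 other gene lists (y), 1 point per gene at its brightest probe set, with the median as a black bar and dashed lines at a 2-fold difference. The medians run from -0.157 (ND5 alone) to 0.004 (biogenesis), and only Cox6b2 and Pdk1 lie beyond a dashed line.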

How the data were processed

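The deposited value is a linear signal intensity for each probe set, and the submitters' processing notes name GCOS, the software of the Affymetrix scanner. The sources used here give neither its version nor the algorithm or target of its scaling, and no detection calls were used. The means without the lowest and highest 2% were 496 (IL-5+) and 497 (IL-5-), and the medians 57.2 and 60.4, so ratios are relative to the rest of each array. Signals ran from 0.1 to 51950, and the members reached 26507.8.

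Of 45037 probe sets, 34945 had 1 gene symbol in the platform annotation, 932 several and 9160 none. The Entrez identifiers of all 90 member genes matched RefSeq on GRCm38.p6, with 0 symbols changed. Each gene was represented by its probe set of highest mean log2 signal. Signals under the floor (40th percentile, 36.3) were set to it, and the log2 ratio of IL-5+ over IL-5- was taken. A gene was called at 2-fold, with 1.5-fold as a second threshold. There was no test, and no p-value was computed. The number of arrays (1 per group) limits the precision.

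Promoters were searched by exact match. The YY1 core lay on the printed strand 277 times and on the other 181 times for genes of the plus strand, and 290 and 179 times for genes of the minus strand, so the table was read as running along the gene. The calculations were tested on simulated arrays. Named genes followed a rule: members past 2-fold, the 4 highest and 4 lowest per complex, core subunits, restricted isoforms and partners, the 3 widest probe set ranges, and the 3 largest ratios of each pathway list. Genes named beside these (Atp5g2, Atp5g3, Atp5k, Ndufb6, Ppargc1a and the cell type markers) were chosen after their values were seen. The members and lists were chosen with earlier results of these data known. Alternatives were 3 scalings (array median, quantile, loess with a span of 0.3), a floor at the 20th or the 60th percentile, no floor, an added constant, 2 other choices of probe set, folds of 1.5 and 3, subunits only and, after the data were seen, without restricted isoforms and with bright genes only. Calculations were done in Python 3.11.15 with pandas 2.3.3, numpy 2.4.6, statsmodels 0.14.6 and scipy 1.17.1, and drawn with matplotlib 3.10.9.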

Additional observations from a re-analysis of the deposited data

How the results depend on the processing

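The medians of complex II, the mitochondrial ribosome, glycolysis and ND5 stayed below 0, and those of the other complexes and lists changed sign in 1 or more alternatives, complex III for example running from -0.108 to 0.035. The member median ranged from -0.10 to 0.01, and 34 members lay below 0 after division by the array median, against 60. Counts of dim genes depended on the floor. All genes at least 2-fold higher and lower numbered 1325 and 1572 when the floor was the 20th percentile, 2058 and 2314 without one, and 183 and 226 at the 60th. Folds of 1.5 and 3 gave 1036 and 1563, and 91 and 143. Among members, 1 gene was 2-fold higher with the lower floor and with none, where 1 and 2 were 1.5-fold higher. With the floor at the 60th percentile 0 were 2-fold and 1 was 1.5-fold lower. The added constant and a fold of 3 each left 0 lower, and a fold of 1.5 gave 2. The median of probe sets left 1 at 1.5-fold lower. Without probe sets of the suffixes _s_at, _x_at and _a_at, 2 were 2-fold and 4 were 1.5-fold lower, and 1 TCA cycle gene was 2-fold lower and 1 mitochondrial ribosome gene 2-fold higher. With the lower floor or none, 1 assembly factor was 2-fold lower and 1 glycolysis gene 2-fold higher. On the gene's own strand alone the ETS core was in 8.86%, the SP1 box in 30.4% and the TATA box in 3.8% of member promoters. Of 514 values of 59 named members, 14 moved by more than the probe set SD of their brightness. Reversal of a difference past 2-fold could be counted for Cox6b2 alone. It has 1 probe set, so its unchanged sign says nothing about the other members. Among the 14, the sign changed with the choice of probe set for Cox8c, Sdha, Uqcr10, Uqcrq, Uqcrh and Ndufaf8. The cause of these changes was not tested beyond the construction of each alternative. No paired analysis was possible because each group has 1 sample.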

Other observations

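A further 10 probe sets carry several gene symbols, at least 1 of which is an oxidative phosphorylation name, and were left out of the gene counts. Of these, 8 exceeded the floor in at least 1 group, with log2 ratios from -0.897 to 0.266, a median of -0.006 and 5 below 0. The 6 with a mean signal of 2000 or more lay between -0.201 and 0.093.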
